A study of Arabidopsis thaliana with 54 samples.

Results

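The aquaporin family of Arabidopsis thaliana was taken as 35 genes listed by locus, namely the plasma membrane intrinsic proteins (PIP1, 5 genes, and PIP2, 8 genes), the tonoplast intrinsic proteins (TIP, 10 genes), the NOD26-like intrinsic proteins (NIP, 9 genes) and the small basic intrinsic proteins (SIP, 3 genes). These 35 were among the 34262 genes counted in each library, and all 35 were found by their locus identifiers. Messenger RNA of whole roots of 5-day-old Col-0 seedlings was sequenced in 54 libraries, 3 for each of 18 groups. The groups were cif1 cif2 with 100 nM CIF2 or with no peptide, sgn3 with 100 nM CIF2 or with no peptide, and wild type with 100 nM CIF2 or with no peptide, each at 30, 120 and 480 min after the seedlings were moved on their mesh to fresh medium. The mutants were cif1-2 cif2-2, in which small insertions made by genome editing disrupt both peptide genes, and sgn3-3, a T-DNA insertion line in the receptor gene. Each mutant was 1 line, and the source of the 3 libraries of a group was given only as a batch number. P-values therefore measure the spread between libraries within groups, over all 54, after batch differences are taken out.

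Aquaporins are membrane channels for water, and several also pass small uncharged solutes such as glycerol, urea, boric acid or hydrogen peroxide. PIPs sit in the plasma membrane, where PIP1 and PIP2 proteins can assemble into mixed tetramers, TIPs sit mainly in the vacuolar membrane, NIPs pass mainly metalloid acids and other small solutes, and SIPs are found in the endoplasmic reticulum. In roots, the PIPs carry much of the cell-to-cell water flow across the endodermis. The CIF peptides act through the receptor kinase SGN3 in the endodermis, where they drive closure of the Casparian strip and, at high dose, extra lignin and suberin.

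The members of the family that fell and rose most with CIF2 are shown by the 250 bases before their annotated starts, on the gene's own strand, from RefSeq for build TAIR10.1. PIP2-3 and TIP2-3 were the members with the largest falls, and NIP4-2 and NIP1-2 those with the largest rises. Capitals mark TTGAC on either strand (GTCAA where it lies on the other strand), the core of the W-box bound by WRKY factors.
PIP2-3, chr2:15617385-15617634, plus strand: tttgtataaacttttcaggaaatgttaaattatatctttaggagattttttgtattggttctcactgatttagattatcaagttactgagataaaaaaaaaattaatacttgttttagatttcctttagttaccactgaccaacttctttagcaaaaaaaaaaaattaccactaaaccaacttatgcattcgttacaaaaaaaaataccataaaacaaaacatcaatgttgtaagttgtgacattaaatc
TIP2-3, chr5:19249623-19249872, minus strand: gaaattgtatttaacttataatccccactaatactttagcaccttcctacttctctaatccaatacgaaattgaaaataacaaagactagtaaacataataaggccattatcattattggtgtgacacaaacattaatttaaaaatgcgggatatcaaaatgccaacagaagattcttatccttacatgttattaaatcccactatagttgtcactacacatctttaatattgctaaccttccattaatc
NIP4-2, chr5:15049752-15050001, plus strand: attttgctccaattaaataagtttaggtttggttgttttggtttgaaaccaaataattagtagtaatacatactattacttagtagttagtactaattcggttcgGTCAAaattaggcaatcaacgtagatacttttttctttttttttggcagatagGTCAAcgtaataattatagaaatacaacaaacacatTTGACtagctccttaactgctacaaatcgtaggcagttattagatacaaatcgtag
NIP1-2, chr4:10365794-10366043, plus strand: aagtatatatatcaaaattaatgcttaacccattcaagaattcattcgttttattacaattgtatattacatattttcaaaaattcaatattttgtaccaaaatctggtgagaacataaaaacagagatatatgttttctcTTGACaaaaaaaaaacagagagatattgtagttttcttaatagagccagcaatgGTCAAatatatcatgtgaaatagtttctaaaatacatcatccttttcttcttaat
TTGAC was found 3 times before NIP4-2, 2 times before NIP1-2, and 0 times before PIP2-3 and TIP2-3. Other members that fell with CIF2 in wild type differed. PIP1-3, PIP1-4, PIP1-5, PIP2-1 and TIP1-2 held it 1 time each and PIP2-7 2 times. PIP1-1, PIP1-2, PIP2-2, PIP2-4, PIP2-6, TIP1-1, TIP2-1 and TIP2-2 held it 0 times. The other members that rose differed as well. NIP5-1 held it 0 times, SIP1-2 1 time, PIP2-5 2 times and NIP2-1, called in cif1 cif2 alone, 3 times. NIP1-1, which passed at no time with CIF2, held it 1 time. Of all 27443 promoters of this length, 44.9% held it, and 19 of the 35 members did. The abscisic acid element core ACGTG, searched likewise on both strands, was in 22.9% of all promoters and in 4 members (TIP1-1, TIP3-1, TIP5-1 and SIP1-1). The MYB letters ACCTAC were in 4.6% of all promoters and in 2 members, and ACCAAC was in 11.5% and in 4 members, PIP2-3 and TIP2-2 among them. TATAAA was in 47.3% and in 13 members, and the evening element AAAATATCT in 2.36% and in 0 members. The last letters of TTGAC are the first of ACGTG, so these motifs can overlap, and each was counted on its own. These matches describe letters only.

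PIP2-2 (chr2:15613368-15615022, minus strand, 4 exons) and PIP2-3 (chr2:15617635-15619155, plus strand, 4 exons) are neighbours in TAIR10.1, and their coding sequences were identical at 94.8% of positions over 858 bases. The longest stretch they share runs for 242 bases of coding sequence, across an exon boundary, and reads that lie wholly within it cannot be placed in either gene:
PIP2-2 and PIP2-3, chromosome 2, shared coding stretch: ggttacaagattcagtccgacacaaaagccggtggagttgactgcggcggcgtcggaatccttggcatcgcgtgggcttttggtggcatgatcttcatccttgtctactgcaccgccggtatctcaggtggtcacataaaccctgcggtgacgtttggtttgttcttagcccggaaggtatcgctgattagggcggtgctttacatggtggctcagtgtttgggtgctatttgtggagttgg
Reads from such a stretch can only be counted where they reach a differing base, so the counts of PIP2-2 and PIP2-3 are uncertain to that extent. The next closest pair was NIP4-1 and NIP4-2, with 88.0% identity and a longest shared stretch of 74 bases, and NIP4-1 had 0 counts in all 54 libraries. TIP2-1, TIP3-1, TIP3-2, TIP5-1, NIP2-1, NIP6-1 and SIP2-1 overlap a gene annotated on the opposite strand. The libraries were made with a stranded kit, but the strand setting of the counting was not given in the sources used here. For these 7 genes reads of both strands may therefore not be told apart.

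Between 21328819 and 38588050 reads were counted per library (median 28866174), and no pair of libraries held the same counts. SGN3 checked the labels, with 19.93 to 46.46 CPM (counts relative to the library total) in the 18 sgn3 libraries, against 104.6 to 289.9 CPM in the 18 wild-type libraries. The 3 cif1 cif2 libraries titled as CIF2 for 480 min carry a treatment label of no peptide. They were taken as treated, by their titles, and every cif1 cif2 result with CIF2 at 480 min rests on them. Defining markers of the root were present, such as CASP1 of the endodermis at 138.7 to 389.8 CPM, while the shoot markers were low but not absent, RBCS1A at 2.025 to 11.26 CPM, LHCB2.1 at 0 to 2.2 CPM and LHCB1.1 at 0 to 1.641 CPM. All CPM given here were scaled between libraries by the trimmed mean of M-values (TMM).

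Without peptide, wild-type roots expressed a few aquaporins far above the rest (levels in CPM per kilobase of exon, mean ± SD over 9 libraries of 3 times). TIP1-2 and TIP1-1, the main vacuolar water channels of the root, had 1300.7 ± 254.5 and 1160.3 ± 252.6, and PIP2-1, a plasma membrane water channel, had 916.2 ± 154.5. PIP1-2 followed with 688.5 ± 157.4, PIP2-2 with 628.1 ± 98.59 and PIP1-1 with 591.8 ± 145. These neighbours in the order differed by less than the larger of their SDs, except that PIP2-1 stood above PIP1-2 by more than 1 SD. TIP2-2 (471.6 ± 161.1), PIP1-3 (442.7 ± 123.1) and PIP2-7 (399.7 ± 83.04) made the next step, with overlapping spreads.

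A middle range held TIP2-1 at 297.7 ± 115.3, PIP1-5 at 227.3 ± 42.47, NIP1-1 at 144 ± 55.56 and TIP2-3 at 121.9 ± 65.03 CPM per kilobase. PIP2-4 (109.1 ± 31.41), PIP2-3 (101.8 ± 21.42), SIP1-1 (100.7 ± 8.73) and TIP4-1 (99.99 ± 15.18) were not separated by their spread. SIP2-1 had 67.34 ± 3.495, PIP1-4 had 64.84 ± 14.73, and NIP5-1, the boric acid channel of root cells, had 51.5 ± 6.782.

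Below these, NIP1-2 had 10.22 ± 1.483, NIP3-1 6.318 ± 2.562, SIP1-2 5.292 ± 0.9281, PIP2-6 5.212 ± 1 and PIP2-8 3.775 ± 0.5084 CPM per kilobase. NIP6-1, known as a boric acid channel of young shoot tissue, had 2.383 ± 0.492, NIP4-2 1.753 ± 0.6613, PIP2-5 0.9382 ± 0.3069 and NIP2-1 0.3476 ± 0.3455. The remaining 6 members did not reach 1 CPM in any library and were not tested. TIP3-1, which belongs to seed protein storage vacuoles, and TIP5-1, known from pollen, each had 0 counts in 52 libraries and at most 1 in the other 2. TIP3-2 had at most 7 counts, NIP7-1, an anther channel, at most 6, and TIP1-3, known from pollen, at most 10. With 3 counts as the limit that a count of 0 allows, NIP4-1 lay below 0.0777 to 0.141 CPM, depending on the depth of the library, where the limit covers counting error only.

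**Figure D1:**
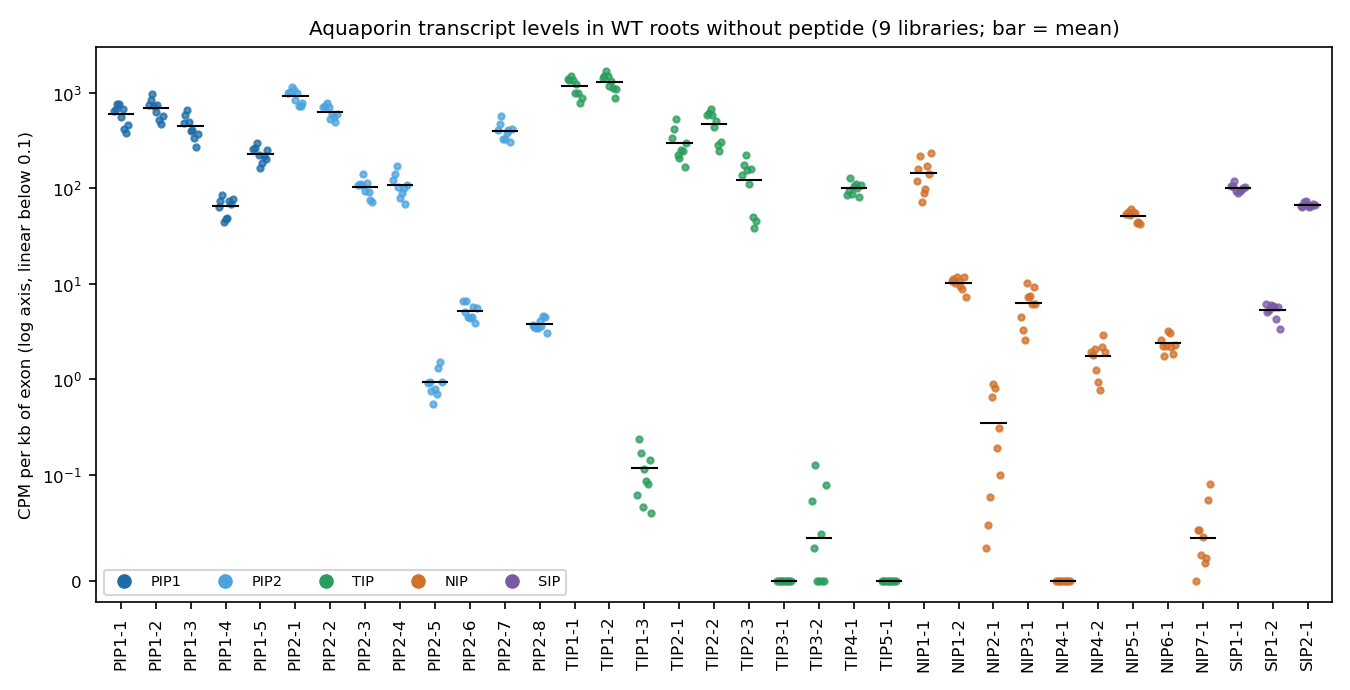
Levels of all 35 aquaporin genes in wild-type roots without peptide, in CPM per kilobase of exon on an axis that is linear below 0.1 and logarithmic above, with 1 point per library (9 libraries, 3 at each time) and a bar at the mean. TIP1-2 and TIP1-1 lie highest, with means of 1300.7 and 1160.3, and the 6 genes that were not tested lie near 0.

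CIF2 lowered most PIP and TIP genes of wild-type roots, and raised a few NIP genes and SIP1-2. At 120 min, 16 of the 29 tested members fell and 2 rose, and at 480 min 11 fell and 4 rose, at an adjusted P of at most 0.05 (edgeR quasi-likelihood test, Benjamini-Hochberg adjustment over all 19668 genes tested). Over all genes tested, 4.28% fell and 6.3% rose at 120 min, and 3.23% fell and 6.88% rose at 480 min. The median log2 fold change of the 29 members was -0.43 at 120 min and -0.21 at 480 min, where that of all genes was -0.003 and -0.014. Where a change of at least 1 on the log2 scale was also required, 7 members fell and 2 rose at 480 min (0.361% and 1.93% of all genes), and 2 fell and 1 rose at 120 min (0.234% and 1.25%). The number of falls of that size at 480 min was 4 to 7 when 1 batch was left out.

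At 30 min the changes in wild type were smaller, with 5 members lower and 1 higher, against 2.01% and 5.78% of all genes. The 5 were PIP2-3 (log2 fold change -0.54), PIP2-2 (-0.37), PIP2-1 (-0.32), TIP1-2 (-0.30) and TIP1-1 (-0.30), and none of the 5 was past the threshold without batch 2 or without batch 3. In batch 1 the summed level of the family with CIF2 was 0.972 of that without peptide at 30 min, while in batches 2 and 3 it was 0.774 and 0.761. The wild-type controls of that time had the family at 12434.1, 13274.6 and 15136.4 CPM, above the untreated cif1 cif2 (10743.6 to 11664.7 CPM) and, batch by batch, the untreated sgn3 libraries (10758.8 to 13076.9 CPM). The same controls enter the differences of wild type at 30 min from sgn3 and from 480 min, and their part in these falls was not tested. The rise at 30 min was that of NIP5-1, described with the NIPs.

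The subfamilies parted along these lines at 120 min in wild type. All 5 PIP1 genes fell (median log2 fold change -0.58), 6 of 8 PIP2 genes fell (-0.65) and 5 of 6 tested TIP genes fell (-0.57), whereas 0 of 7 tested NIP genes and 0 of 3 SIP genes fell and 2 NIP genes rose. At 480 min the falls covered 2 of 5 PIP1, 5 of 8 PIP2 and 4 of 6 TIP genes, and the rises 2 of 7 NIP genes, 1 of 3 SIP genes and 1 PIP2 gene. The median log2 fold change at 480 min was -0.28 for PIP1, -0.58 for PIP2, -0.89 for TIP, 0.50 for NIP and 0.04 for SIP. Since 2 of the 7 tested NIP genes passed at 480 min, the NIP median is the value of a gene that did not pass. The subfamilies are compared by these counts and medians alone, since members of a subfamily share sequence and are not replicates.

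**Figure D2:**
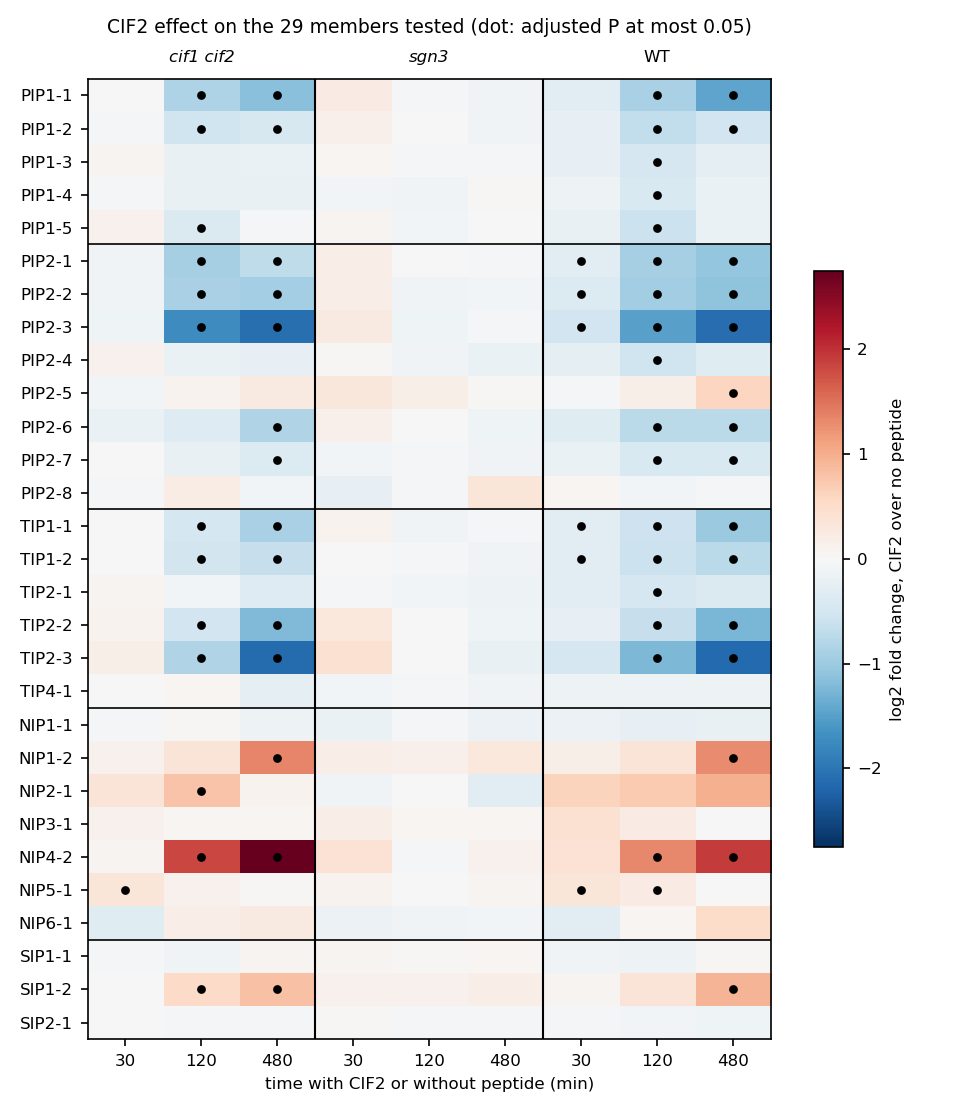
Log2 fold change of the 29 tested aquaporin genes (rows, by subfamily) with CIF2 over no peptide in cif1 cif2, sgn3 and wild type at 30, 120 and 480 min (columns). A dot marks an adjusted P of at most 0.05; the sgn3 columns hold 0 dots, and the strongest colours are those of PIP2-3, TIP2-3 and NIP4-2 at 480 min.

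PIP2-3 (AT2G37180), a plasma membrane water channel, had the largest fall of the PIP genes in wild type at each time. In wild-type roots at 120 min it had 45.81, 46.02 and 58.69 CPM with CIF2, against 173, 114.2 and 138.4 CPM with no peptide (batches 1, 2 and 3). At 480 min it had 26.07, 22.09 and 19.89 CPM with CIF2, against 111.1, 92.54 and 87.84 CPM with no peptide. The treatments did not overlap at either time, nor at 30 min, with 117, 79.83 and 81.88 CPM with CIF2 against 132.8, 136.2 and 132.2 CPM with no peptide. The log2 fold change of PIP2-3 was -0.54 (SE 0.122, edgeR adjusted P 0.00214) at 30 min, -1.49 (SE 0.125, adjusted P 5.23e-12) at 120 min and -2.10 (SE 0.131, adjusted P 4.65e-16) at 480 min.

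Its neighbour PIP2-2 (AT2G37170), the higher of the pair per kilobase, is a water channel of the same kind. PIP2-2 had 397.7, 317.3 and 304.7 CPM with CIF2 at 480 min in wild type, against 743.8, 663 and 794.7 CPM with no peptide, and the libraries did not overlap. Its log2 fold change was -1.105 (SE 0.109, edgeR adjusted P 1.55e-10). PIP2-1 (AT3G53420, chr3:19803473-19805730, minus strand) had 618.6, 538 and 528.6 CPM with CIF2, against 1147.7, 1129.8 and 1228.6 CPM with no peptide, so every library with CIF2 lay below every library without it. The log2 fold change of PIP2-1 at 480 min was -1.05 (SE 0.087, adjusted P 1.17e-12).

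PIP1-1 (AT3G61430, chr3:22733243-22735394, plus strand) changed most among the PIP1 genes, whose products reach the plasma membrane mainly together with PIP2 proteins. At 480 min in wild type it had 249.8, 241.1 and 222.3 CPM with CIF2, against 653.7, 581.4 and 719.9 CPM with no peptide, and no library with CIF2 came near those without, at a log2 fold change of -1.45 (SE 0.114, edgeR adjusted P 3.19e-13). At 120 min that of PIP1-1 was -0.88 (adjusted P 1.4e-07), and at 30 min -0.31 (adjusted P 0.0896), which did not pass. PIP1-2 was also lower, at -0.67 after 120 min and -0.54 after 480 min. PIP1-3 (-0.47), PIP1-4 (-0.43) and PIP1-5 (-0.58) fell at 120 min and were not past the threshold at 480 min, and the call of PIP1-3 was lost without batch 1.

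Among the other PIP2 genes, PIP2-6 was lower at 120 min (log2 fold change -0.74) and 480 min (-0.73), and PIP2-7 likewise (-0.43 and -0.42). At 480 min PIP2-6 had 7.262, 7.155 and 5.308 CPM with CIF2, against 12.41, 8.298 and 12.09 CPM with no peptide, and neither PIP2-6 nor PIP2-7 passed at 480 min without batch 1 or without batch 3. PIP2-4 was past the threshold at 120 min alone (-0.55, edgeR adjusted P 0.00529), and not without batch 1. PIP2-5 was the single PIP with a rise, at 3.789, 3.63 and 2.829 CPM with CIF2 after 480 min, against 2.354, 2.74 and 1.702 CPM with no peptide. Its call (0.59, adjusted P 0.0481) was lost with DESeq2, with limma-trend, without the filter on low counts, without the batch block and with any 1 batch left out. PIP2-8 passed at no time.

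Among the vacuolar channels, TIP2-3 (AT5G47450, chr5:19248249-19249622, minus strand) had the largest fall in wild type at 480 min, close to that of PIP2-3, which fell more at 120 min. At 480 min TIP2-3 had 14.24, 10.54 and 10.82 CPM with CIF2, against 57.8, 45.09 and 52.91 CPM with no peptide. At 120 min it had 55.96, 63.85 and 92.75 CPM with CIF2, against 182.8, 129.8 and 187.3 CPM with no peptide. The treatments were separate at both times, and at 30 min they overlapped. The log2 fold change of TIP2-3 was -1.25 (SE 0.202, edgeR adjusted P 1.56e-05) at 120 min and -2.13 (SE 0.227, adjusted P 9.41e-10) at 480 min.

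TIP2-2 (AT4G17340, chr4:9698940-9700472, plus strand), its closest relative here (81.5% identity in coding sequence), had 208.8, 142.8 and 117.7 CPM with CIF2 at 480 min in wild type, against 386.4, 334.8 and 408.6 CPM with no peptide. All 3 libraries with CIF2 were lower, and the log2 fold change was -1.27 (SE 0.169, edgeR adjusted P 1.9e-07). TIP2-2 fell at 120 min in wild type too, a call that was lost without batch 1. TIP1-1 (AT2G36830, chr2:15445294-15446621, plus strand) had 632.6, 505.9 and 468.3 CPM with CIF2 at 480 min, against 1215.8, 968.4 and 1092.0 CPM with no peptide, again with no overlap. Its log2 fold change was -1.03 (SE 0.091, adjusted P 7.48e-12), and that of TIP1-2 was -0.75 (adjusted P 2.52e-08). TIP2-1 fell at 120 min (-0.47, lost without batch 1 and without batch 3) and did not pass at 480 min, and TIP4-1 passed at no time.

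Some NIP genes moved the other way. NIP4-2 (AT5G37820, chr5:15050002-15051599, plus strand), whose closest relative NIP4-1 was not detected and which is known from pollen, had 3.231, 2.773 and 2.44 CPM with CIF2 at 120 min in wild type, against 1.465, 1.087 and 0.9115 CPM with no peptide. At 480 min it had 12.84, 7.819 and 9.741 CPM with CIF2, against 2.522, 3.366 and 2.234 CPM with no peptide. Every library with CIF2 was above every library without it at both times, although these are low levels. The log2 fold change of NIP4-2 was 1.31 (SE 0.247, edgeR adjusted P 0.000164) at 120 min and 1.92 (SE 0.196, adjusted P 3.61e-10) at 480 min.

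NIP1-2 (AT4G18910, chr4:10366044-10368510, plus strand), a channel for which malate-bound aluminium transport has been described, rose late. It had 35.72, 30.75 and 31.12 CPM with CIF2 at 480 min in wild type, against 12.64, 16.87 and 10.43 CPM with no peptide. The groups were apart by far more than their spread, with a log2 fold change of 1.305 (SE 0.126, edgeR adjusted P 7.33e-11). At 120 min NIP1-2 did not pass (0.35, adjusted P 0.0698). NIP1-1, its closest relative here (84.5% identity between the most similar annotated coding models, of 678 and 669 bases), passed at no time in any genotype.

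NIP5-1 (AT4G10380, chr4:6431161-6435396, minus strand) rose early and slightly, and lost the difference by 480 min. In wild type at 30 min it had 151.6, 157.5 and 137.1 CPM with CIF2, against 117.2, 121 and 114 CPM with no peptide. At 120 min it had 146, 147.5 and 146.2 CPM with CIF2, against 132.7, 121.3 and 119.4 CPM with no peptide. No library overlapped at either time, while at 480 min the groups did (95.78, 89.28 and 94.23 CPM against 93.14, 95.51 and 91.46 CPM). The log2 fold change of NIP5-1 was 0.34 (SE 0.066, edgeR adjusted P 0.000241) at 30 min, 0.24 (SE 0.065, adjusted P 0.0122) at 120 min and -0.003 (95% interval -0.132 to 0.126) at 480 min. The call at 120 min was lost without batch 2 and without batch 3. NIP3-1, NIP6-1 and NIP2-1, the last a lactic acid channel of roots under low oxygen, passed at no time in wild type.

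SIP1-2 (AT5G18290), of the endoplasmic reticulum, was the 1 SIP gene that passed. It had 13.26, 8.726 and 10.53 CPM with CIF2 at 480 min in wild type, against 5.514, 7.437 and 4.397 CPM with no peptide, and the libraries did not overlap. Its log2 fold change was 0.925 (SE 0.147, edgeR adjusted P 7.18e-06). SIP1-1 and SIP2-1 passed in none of the 9 comparisons of CIF2 with no peptide.

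**Figure D3:**
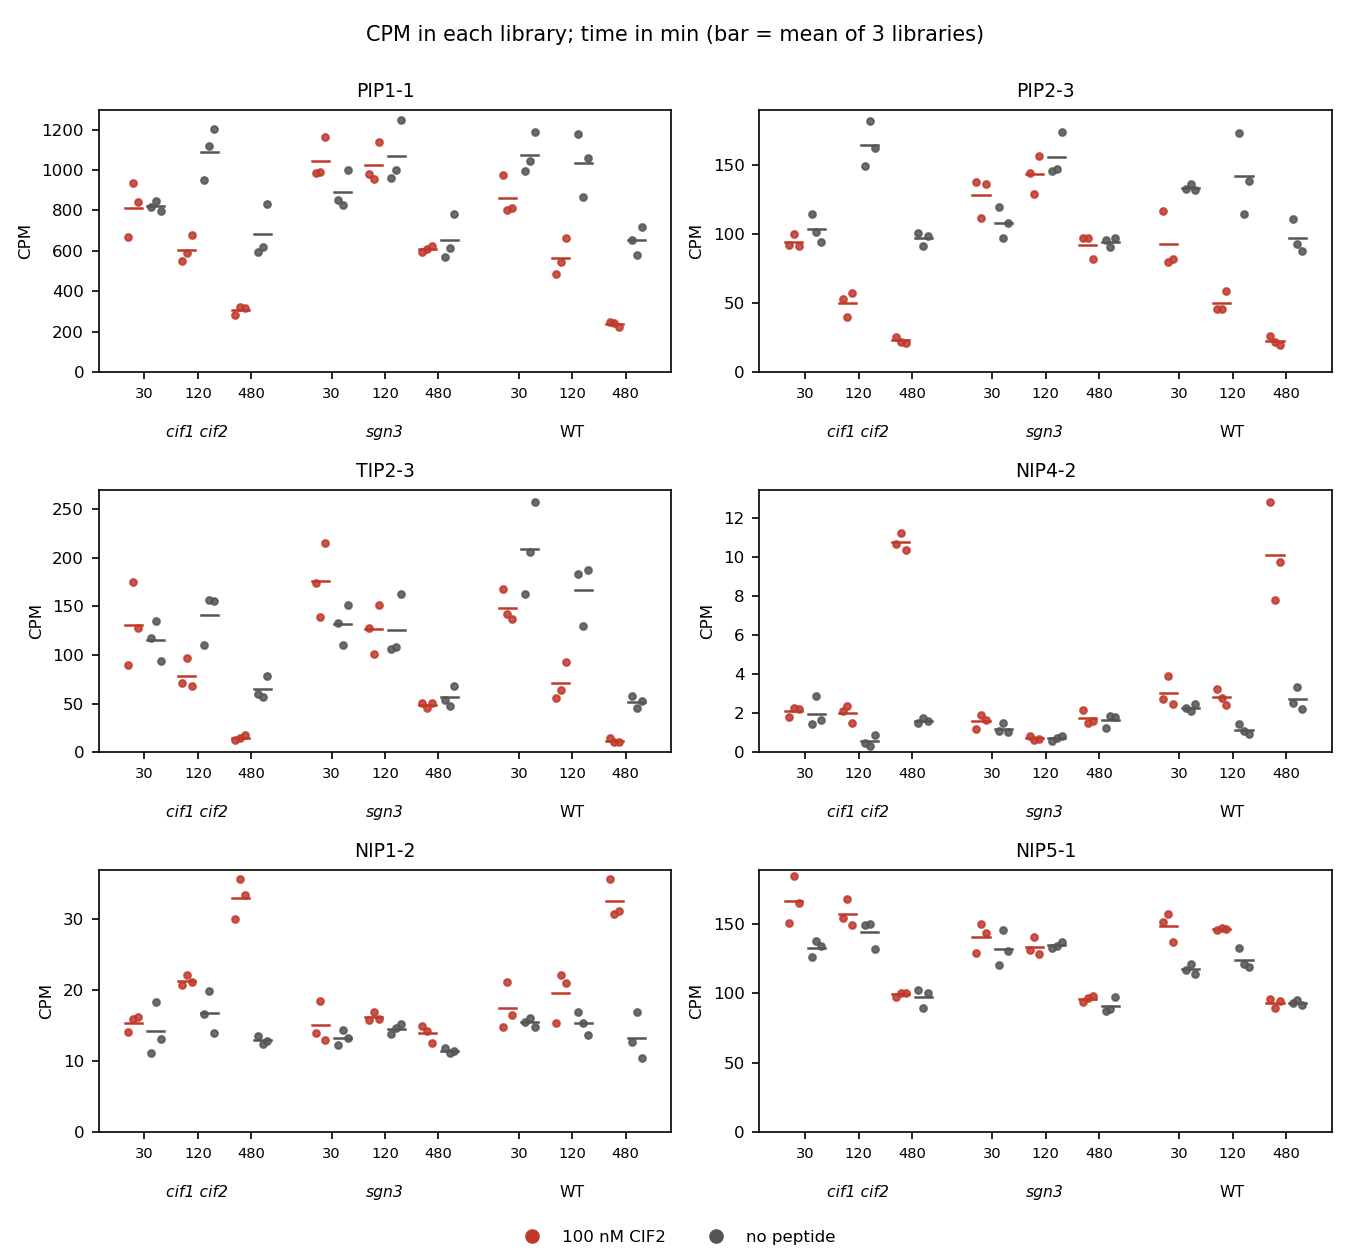
CPM of PIP1-1, PIP2-3, TIP2-3, NIP4-2, NIP1-2 and NIP5-1 in every library with CIF2 (red, left) and with no peptide (grey, right), by genotype and time, with a bar at the mean of 3 libraries. In wild type at 480 min PIP2-3 lies between 19.89 and 26.07 CPM with CIF2 and between 87.84 and 111.1 CPM with no peptide, and in sgn3 at that time its treatments overlap.

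Summed over all members, the family gave 5497.0 ± 302.2 CPM with CIF2 and 9023.2 ± 937.4 CPM with no peptide in wild type at 480 min (SD, n = 3 each). At 120 min the sums were 7252.0 ± 843.8 CPM with CIF2 and 11273.0 ± 1284.2 CPM with no peptide. The sums with CIF2 were lower in each of the 3 batches at both times. Within batches the ratio at 480 min averaged 0.613 ± 0.063 for the family, 0.669 for PIP1, 0.544 for PIP2, 0.56 for TIP, 0.989 for NIP and 1.01 for SIP. Such sums follow the members with the highest CPM. Most of the NIP sum was NIP1-1 and NIP5-1 (medians over all libraries of 213.9 and 129.9 CPM, with NIP1-2 next at 15.44), and neither passed at 480 min. The PIP and TIP sums were below their controls in 3 of 3 batches, and the NIP and SIP sums in 2 of 3, with batches on both sides of 1. In whole roots, fewer cells of a type and less RNA per cell cannot be told apart.

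**Figure D4:**
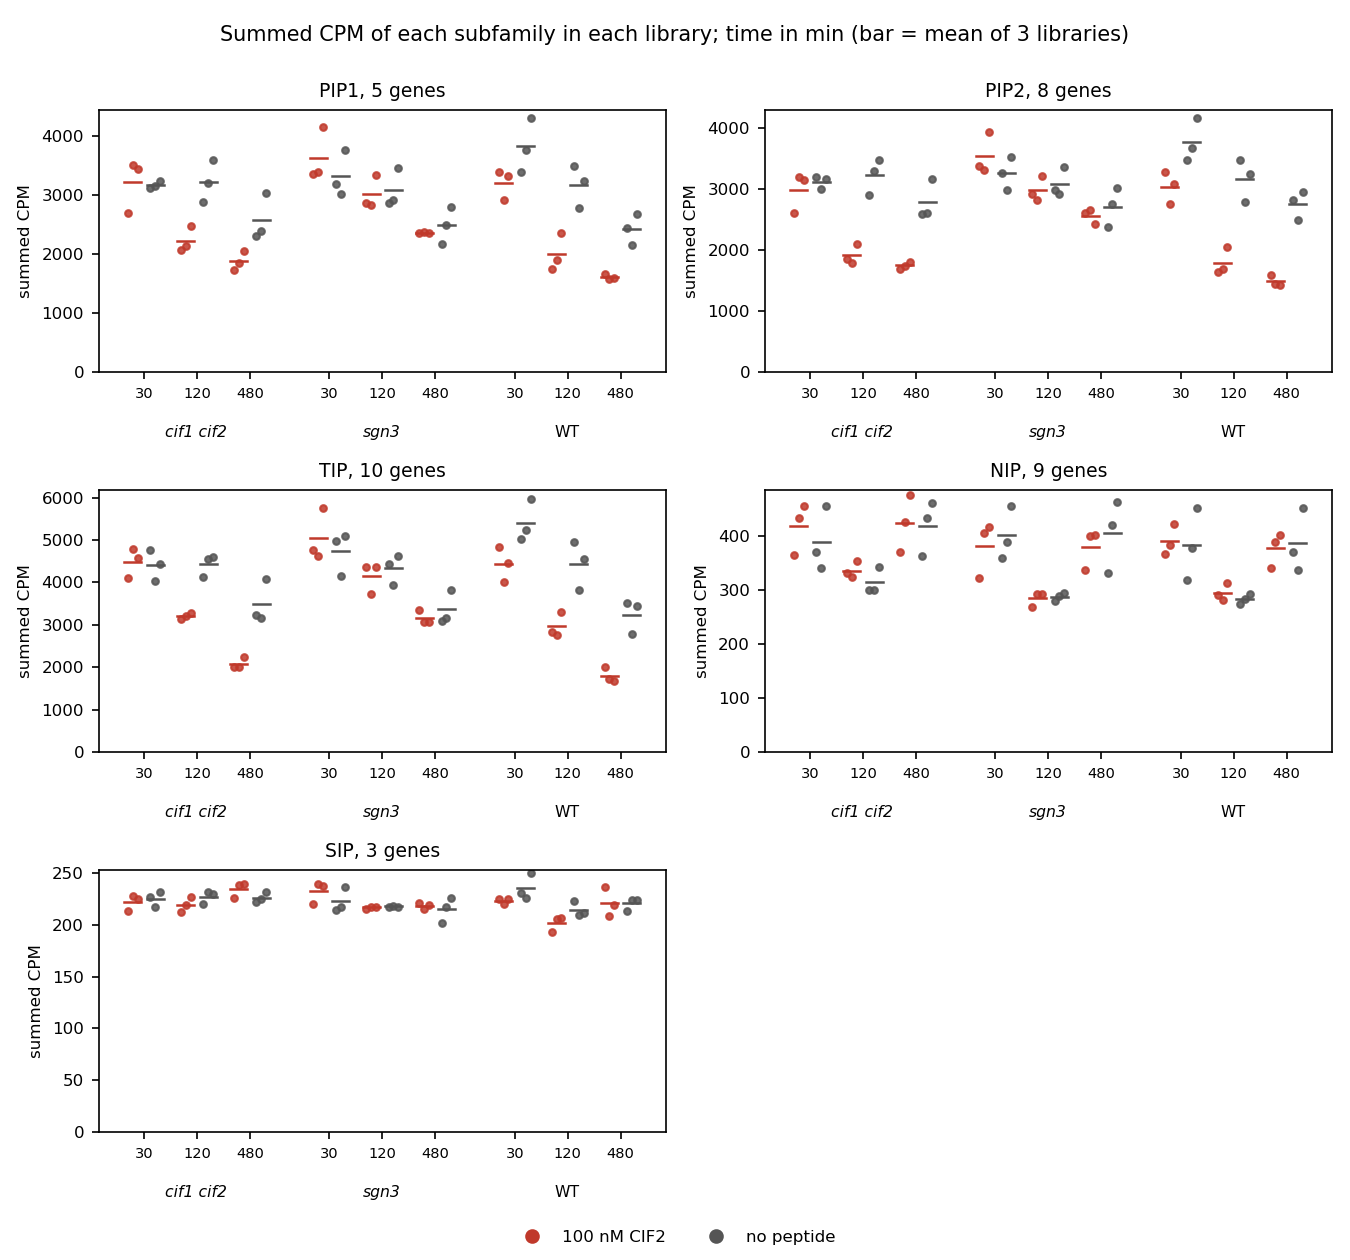
Summed CPM of the PIP1 (5 genes), PIP2 (8), TIP (10), NIP (9) and SIP (3) subfamilies in every library with CIF2 (red, left) and with no peptide (grey, right), by genotype and time, with a bar at the mean of 3 libraries. In wild type at 480 min the TIP sum is 1676.3 to 2014.8 CPM with CIF2 and 2772.8 to 3511.8 CPM with no peptide, while the NIP and SIP sums overlap.

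In cif1 cif2, where both peptide genes are disrupted, CIF2 again lowered PIP and TIP genes and raised NIP genes and SIP1-2. At 120 min 10 members fell and 3 rose (6.23% and 7.44% of all genes), and at 480 min 11 fell and 3 rose (3.92% and 6.96%), with median log2 fold changes of -0.19 and -0.20 beside 0.000 and -0.012 for all genes. With the fold asked for as well, 1 fell and 1 rose at 120 min (0.33% and 1.77% of all genes), and 4 fell and 2 rose at 480 min (0.356% and 2.12%). At 30 min NIP5-1 rose and no member fell (8.68% and 2.93% of all genes). By subfamily, 2 of 5 PIP1, 5 of 8 PIP2 and 4 of 6 tested TIP genes fell at 480 min, and 2 of 7 tested NIP genes and 1 of 3 SIP genes rose. Of the falls at 120 min in cif1 cif2, that of TIP2-2 was lost with any 1 batch left out. Those of TIP2-3 and PIP1-5 were lost without batch 3.

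PIP2-3 in cif1 cif2 had 53.09, 39.94 and 57.62 CPM with CIF2 at 120 min, against 149.6, 182 and 162.5 CPM with no peptide. At 480 min it had 25.7, 21.82 and 21.41 CPM, against 100.6, 91.32 and 98.63 CPM with no peptide. Its libraries were apart at both times, with log2 fold changes of -1.73 (edgeR adjusted P 3.19e-14) and -2.075 (SE 0.132, adjusted P 6.12e-16). TIP2-3 in cif1 cif2 had 12.97, 14.86 and 17.21 CPM with CIF2 at 480 min, against 59.77, 57.03 and 78.49 CPM with no peptide. Its log2 fold change was -2.115 (SE 0.222, adjusted P 6.29e-10). PIP1-1 had 281.4, 322.5 and 317.6 CPM with CIF2 at 480 min, against 592.7, 621.3 and 830.8 CPM with no peptide (-1.14, adjusted P 1.48e-10).

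NIP4-2 in cif1 cif2 had 2.103, 2.389 and 1.492 CPM with CIF2 at 120 min, against 0.4487, 0.3286 and 0.8678 CPM with no peptide. At 480 min it had 10.68, 11.26 and 10.38 CPM with CIF2, against 1.475, 1.727 and 1.619 CPM with no peptide, which was the largest log2 fold change of any member (2.74, SE 0.211, edgeR adjusted P 1.5e-13). No library overlapped at either time. NIP1-2 had 30.03, 35.62 and 33.41 CPM with CIF2 at 480 min, against 13.55, 12.38 and 12.85 CPM with no peptide (1.35, SE 0.126, adjusted P 3.11e-11). NIP5-1 had 151, 184.4 and 165.6 CPM with CIF2 at 30 min, against 126.1, 138.1 and 134.4 CPM with no peptide (0.33, SE 0.065, adjusted P 0.000234). Of the other rises in cif1 cif2, SIP1-2 stood at 0.53 and 0.81 after 120 and 480 min (the first lost without batch 3), and that of NIP2-1 at 120 min (0.79, adjusted P 0.0256) was lost with any 1 batch left out, with DESeq2 and with limma-trend.

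The difference between the CIF2 effects in cif1 cif2 and in wild type was tested itself, and 0 of 29 members passed at 30, 120 or 480 min (edgeR). At an unadjusted P under 0.05 there were 6, 1 and 2 members, and DESeq2 and limma-trend also called 0. Over all genes, 3, 57 and 1 passed, each with a higher value in cif1 cif2 (0.0153%, 0.29% and 0.00508%). For PIP2-3 at 480 min the effect in cif1 cif2 minus that in wild type 0.025 on the log2 scale (95% interval -0.331 to 0.382). For NIP4-2 it was 0.82 (95% interval 0.239 to 1.401, unadjusted P 0.00854), which did not hold after adjustment over all genes (adjusted P 1).

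In sgn3, where the receptor gene is disrupted, no member was past the threshold with CIF2 at 30, 120 or 480 min (edgeR, with 4, 0 and 2 members at an unadjusted P under 0.05, and 0 by DESeq2 and by limma-trend). Over all genes 0.0305%, 0% and 0% rose, and 0% fell at each time. Log2 fold changes of the members ran from -0.225 to 0.417 at 30 min, from -0.122 to 0.159 at 120 min and from -0.296 to 0.327 at 480 min. When only the 6 libraries of the comparison were fitted, TIP2-3 passed at 30 min, with a log2 fold change of 0.41. At 480 min PIP2-3 had 96.93, 97.01 and 82.08 CPM with CIF2, against 95.78, 90.38 and 96.98 CPM with no peptide, and the 95% interval of its log2 fold change was -0.274 to 0.204. TIP2-3 had 50.05, 45.28 and 50.13 CPM with CIF2, against 54.1, 47.35 and 68.09 CPM with no peptide (95% interval -0.609 to 0.192). NIP4-2 had 2.185, 1.514 and 1.583 CPM with CIF2, against 1.257, 1.839 and 1.808 CPM with no peptide (-0.358 to 0.614), so these 3 genes overlapped between treatments. NIP1-2 had 14.92, 14.23 and 12.63 CPM with CIF2, against 11.87, 11.09 and 11.39 CPM with no peptide, without overlap, and did not pass (log2 fold change 0.285, edgeR adjusted P 0.953).

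The effect in sgn3 minus that in wild type, tested as a difference, was higher for 9 members and lower for 3 at 480 min, against 0.946% and 3.57% of all genes. The 9 were PIP1-1 (1.35), PIP1-2 (0.43), PIP2-1 (0.997), PIP2-2 (1.025), PIP2-3 (2.065), TIP1-1 (0.99), TIP1-2 (0.65), TIP2-2 (1.15) and TIP2-3 (1.92), and the 3 were NIP4-2 (-1.79), NIP1-2 (-1.02) and SIP1-2 (-0.75), all on the log2 scale. A positive value means that the log2 fold change with CIF2 was higher in sgn3 than in wild type. At 120 min 9 members were higher and 0 lower (0.834% and 2.36% of all genes; 18 members at an unadjusted P under 0.05 in either direction), with 4 to 6 higher when 1 batch was left out. DESeq2 and limma-trend each called 1 member lower at 120 min. At 30 min PIP2-1, PIP2-2 and PIP2-3 were higher and 0 lower (0.402% and 1.48% of all genes), and 0 members passed without batch 2 or without batch 3.

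The growth of the effect with time was tested as the effect at 480 min minus that at 30 min. In wild type 9 members had a more negative and 3 a more positive effect at 480 min (1.92% and 3.22% of all genes), and in cif1 cif2 10 and 3 (3.93% and 3.42%). TIP2-3 (-1.67 in wild type and -2.285 in cif1 cif2), PIP2-3 (-1.56 and -1.95) and NIP4-2 (1.51 and 2.655) changed most, and NIP5-1, higher at 30 min, had a lower effect at 480 min (-0.34 and -0.30). In wild type 1 to 3 members had a more positive effect when 1 batch was left out. In sgn3 0 members and 0% of all genes passed (edgeR, 4 at an unadjusted P under 0.05, 0 by DESeq2 and by limma-trend).

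Without peptide, few single members passed between a mutant and wild type, while the summed level at 30 min was lower in both mutants in each of the 3 batches. The sums at 30 min were 11664.7, 10743.6 and 11515.8 CPM in cif1 cif2 and 12001.7, 10758.8 and 13076.9 CPM in sgn3, against 12434.1, 13274.6 and 15136.4 CPM in wild type. In cif1 cif2 at 30 min TIP2-3 was lower (edgeR, log2 fold change -0.83, SE 0.199, adjusted P 0.0391), with 117, 135.2 and 93.86 CPM in cif1 cif2 against 162.6, 206.3 and 257.7 CPM in wild type. It was the 1 member called of 29, beside 0.569% of all genes lower in cif1 cif2 at 30 min, and the libraries did not overlap. In the other 5 comparisons of a mutant with wild type 0 members passed. At an unadjusted P under 0.05 there were 5 and 2 members in cif1 cif2 at 120 and 480 min, and 11, 1 and 2 in sgn3 at 30, 120 and 480 min. The share of all genes at that unadjusted threshold was not counted, so these numbers have no background. Over all genes, at the adjusted threshold, cif1 cif2 differed from wild type in 0.112% higher at 30 min, in 0.203% lower and 0.534% higher at 120 min and in 0.0508% lower and 0.132% higher at 480 min. For sgn3 the shares lower and higher were 0.158% and 0.0712% at 30 min, then 0.0458% and 0.0407% at 120 min. After 480 min they were 0.0559% and 0.0356%. Limma-trend called 1 member lower in cif1 cif2 at 120 min, and DESeq2 called 1 lower in sgn3 at 30 min, where the fit of only the libraries of the comparison called 4. The call of TIP2-3 was lost without the batch block, in a fit of its own libraries alone and when batch 1 or batch 3 was left out (log2 fold change -0.56 without batch 3), while DESeq2 called 4 members lower in cif1 cif2 at 30 min. The largest differences in size were those of NIP2-1 at 30 min (1.14 in cif1 cif2 and 1.15 in sgn3) and NIP4-2 at 120 min in cif1 cif2 (-1.01), none of which passed.

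Levels without peptide also changed with the time on fresh medium, and these shifts set the controls that CIF2 is read against. In wild type 12 members were lower and 2 higher at 120 min than at 30 min (16.8% and 13.5% of all genes), and 16 lower and 2 higher at 480 min (22.8% and 21.7%). In cif1 cif2 the numbers were 8 lower and 6 higher at 120 min (16% each) and 9 lower and 4 higher at 480 min (16% and 13.9%). In sgn3 they were 9 lower and 3 higher at 120 min (15.1% and 12.7%) and 12 lower and 2 higher at 480 min (18% and 14.9%). The wild-type libraries of 30 min, with their high family sums, enter the wild-type numbers at both times, and their part in these was not tested. Time on fresh medium and time of day cannot be told apart in this design.

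TIP2-3 without peptide in wild type had 57.8, 45.09 and 52.91 CPM at 480 min, against 162.6, 206.3 and 257.7 CPM at 30 min. Its log2 fold change was -1.99 (SE 0.207, edgeR adjusted P 1.72e-10) in wild type, -0.85 in cif1 cif2 and -1.22 in sgn3, so this gene fell with time without the peptide too. At 30 min TIP2-3 had 117, 135.2 and 93.86 CPM in cif1 cif2 and 133.3, 109.8 and 151 CPM in sgn3, all below wild type. At 480 min it had 59.77, 57.03 and 78.49 CPM in cif1 cif2 and 54.1, 47.35 and 68.09 CPM in sgn3. TIP2-1 was lower at 120 min than at 30 min in all 3 genotypes, with log2 fold changes of -0.72 in cif1 cif2, -0.88 in sgn3 and -0.89 in wild type. NIP1-1 fell by 0.913 at 120 min in wild type and by 0.803 and 1.023 in cif1 cif2 and sgn3, and at 480 min it passed in cif1 cif2 alone, where it was higher (0.35). PIP2-3, in contrast, was higher at 120 min than at 30 min in cif1 cif2 (0.68) and sgn3 (0.53) without peptide, and did not pass in wild type.

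NIP2-1 and NIP3-1 rose with time without peptide. NIP2-1 had 24, 39 and 44 counts at 120 min in wild type, against 1, 2 and 3 counts at 30 min, and 8, 11 and 4 counts at 480 min. The libraries at 120 min stood above all others, and the log2 fold change of 3.75 over 30 min (95% interval 2.758 to 4.748) is imprecise, since it rests on 6 counts in all at 30 min. It was 3.06 in cif1 cif2 and 2.93 in sgn3. NIP2-1 overlaps AT2G08660 on the other strand by 838 bases, so its counts are uncertain. NIP3-1 had 14.57, 10.48 and 10.81 CPM at 120 min in wild type, against 6.453, 4.722 and 3.721 CPM at 30 min, with no overlap. Its log2 fold change was 1.28 (SE 0.189, edgeR adjusted P 5.47e-07), with 1.39 in cif1 cif2 and 1.30 in sgn3.

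**Figure D5:**
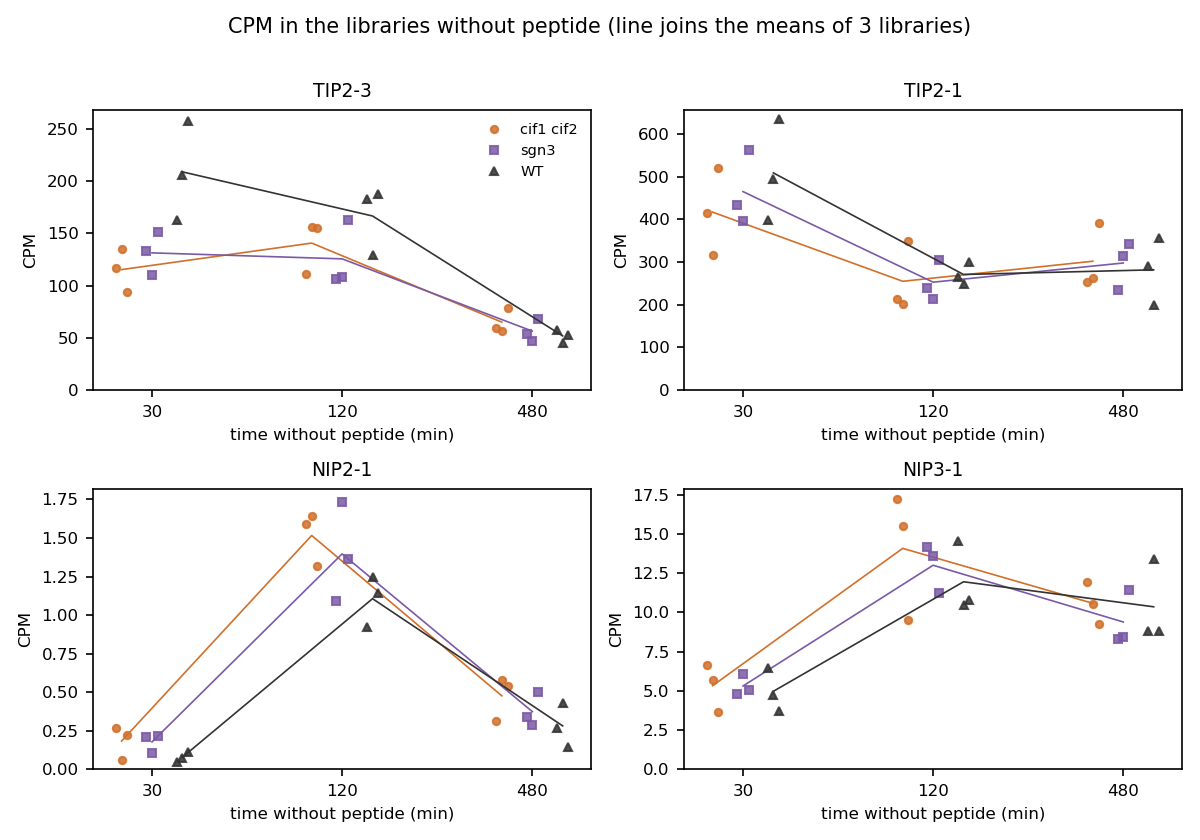
CPM of TIP2-3, TIP2-1, NIP2-1 and NIP3-1 without peptide at 30, 120 and 480 min in cif1 cif2, sgn3 and wild type, with 1 point per library and a line through the means of 3 libraries. TIP2-3 in wild type lies between 45.09 and 57.8 CPM at 480 min and between 162.6 and 257.7 CPM at 30 min, and NIP2-1 is highest at 120 min in all 3 genotypes.

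Genes that work beside aquaporins were read from lists of transporters and regulators. Of the boron exporters (5 of 7 tested), BOR1, which loads boron into the xylem, was lower with CIF2 at 120 min (-0.44, edgeR adjusted P 0.0064) and 480 min (-0.63, adjusted P 5.85e-05) in wild type, as it was among cif1 cif2 libraries (-0.62 and -0.54). BOR4, which exports excess boron, was lower at both times for wild type (-0.57 and -0.36) and at 120 min for cif1 cif2 (-0.85), and BOR2 rose in wild type at 120 min (0.32). Of the plasma membrane proton pumps (9 of 11 tested), AHA4, an endodermal pump, rose at 480 min in wild type (1.21, adjusted P 2.18e-09) and in cif1 cif2 (1.41), and AHA2 rose in wild type at 120 min (0.30). Of the 8 tonoplast pump subunits, VHA-a2 alone passed, in cif1 cif2 at 120 and 480 min (-0.14 and -0.18).

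Of 10 regulators of PIP proteins, 3 rose and 0 fell at 30 min in wild type, 2 rose and 1 fell at 120 min, and 0 passed at 480 min. Over all genes 5.78% rose and 2.01% fell at 30 min, 6.3% rose and 4.28% fell at 120 min, and 6.88% rose and 3.23% fell at 480 min. SYP121, a syntaxin that delivers PIPs to the plasma membrane, rose at 30 min by 0.99 (edgeR adjusted P 9.25e-13) in wild type and 1.335 in cif1 cif2, on the log2 scale. RMA1, a ubiquitin ligase of the kind that keeps PIP2-1 in the endoplasmic reticulum, rose at 30 min by 0.75 (adjusted P 7.36e-05) in wild type and 1.15 in cif1 cif2. QSK1, a receptor kinase reported to act on PIPs under sucrose, rose by 0.23 and 0.40. CPK7, a calcium-dependent kinase, was higher in wild type at 120 min (0.24), and OST1, which phosphorylates PIP2-1, was lower at 120 min in wild type (-0.245) and cif1 cif2 (-0.32). In sgn3 no gene of these 4 lists passed.

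Cell type markers moved with the treatment in part. Of the 2 cortex markers, CO2 did not pass and PEP was lower with CIF2 in wild type at 480 min (-0.79, edgeR adjusted P 0.000262), as well as in cif1 cif2 at 120 and 480 min (-0.50 and -0.49). The summed cortex markers were at 5.613 to 7.469 CPM with CIF2 and at 10.26 to 11.53 CPM with no peptide in wild type at 480 min. Of the 3 endodermis markers, CASP1 and MYB36 rose and SCR fell at 480 min in wild type, with sums of 324.9 to 393.5 CPM with CIF2 and 249.9 to 294.2 CPM with no peptide. The study reports CASP genes and MYB36 as induced by CIF, so this sum is not a measure of the amount of endodermis. The root cap gene SMB fell in wild type at 480 min (-0.495). The sums of the root cap markers SMB and BRN1 overlapped there, at 13.23, 19.13 and 15.54 CPM with CIF2 against 22.33, 17.34 and 24.47 CPM with no peptide. The 4 root hair and epidermis, 3 xylem and 2 phloem markers passed in none of the CIF2 comparisons. Of the 3 shoot markers, LHCB1.1 passed in cif1 cif2 at 30 min (3.12, adjusted P 0.00975), where the batch 3 library with CIF2 stood apart at 44 counts and the treatments otherwise overlapped. The summed shoot markers there were 4.827, 4.891 and 15.1 CPM with CIF2, against 5.322, 3.545 and 3.406 CPM with no peptide, and the log2 fold change of NIP5-1 in cif1 cif2 at 30 min was 0.35 without batch 3. In wild type at 30 min the shoot sums were 7.343, 4.991 and 12.55 CPM with CIF2, against 9.078, 4.722 and 5.88 CPM with no peptide. The part of these shifts in the levels of the aquaporin genes was not tested.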

How the data were processed

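Polyadenylated RNA of whole roots was sequenced in 54 libraries. The authors trimmed reads with Cutadapt 1.8, aligned them to TAIR10 with STAR 2.5.3a and counted them per gene with htseq-count (HTSeq 0.9.1), and deposited whole-number counts for 34262 genes. The library kit was stranded, but the strand setting of the counting was not given in the sources used here, so overlapping genes are uncertain. The 5 lines per library for reads not assigned to a gene (4.72 to 5.15% of the total) were left out. Between 21328819 and 38588050 counts per library were left, so limits from counts of 0 lie at 0.0777 to 0.141 CPM and cover counting error only.

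Groups were taken from the titles. The 19668 genes that reached 1 CPM in 1 library or more were scaled by TMM (factors 0.93248 to 1.0533) and fitted with edgeR 4.0.16 in R 4.3.3 (quasi-likelihood test), with 18 groups and the batch number as a block, as in the study's model. P-values were adjusted by Benjamini-Hochberg within each of 30 comparisons, and a call needed an adjusted P of at most 0.05, and, where stated, a change of 1 or more on the log2 scale. All shares over all genes are for calls. Numbers of members at an unadjusted P under 0.05 have no such share beside them. Batch numbers in the titles paired the libraries: deviations from group means correlated at 0.27 on average between libraries of the same number in different groups (459 pairs). The average of -0.135 between those of different numbers (918 pairs) follows from the first value, because the deviations in a group sum to 0. The fit was tested on simulated counts with known changes.

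Alternatives were limma-trend (limma 3.58.1, prior count 2), DESeq2 1.42.0, its size factors in edgeR, no filter, 1 CPM in 3 libraries, no block, only the libraries of a comparison, an adjusted P of 0.01, each batch left out, and the fit without the 3 libraries with conflicting labels. Levels per kilobase used the merged exon length in TAIR10.1, and promoters are the 250 bases before each annotated start. Members called with the fold threshold in any CIF2 comparison, and NIP5-1, are given per library. PIP2-5, PIP2-6, SIP1-2, NIP2-1 and NIP3-1 were added after their values were seen. The members and lists were chosen with earlier results of these data known.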

Additional observations from a re-analysis of the deposited data

Results flagged for a closer look

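The results below are differences between 2 effects of CIF2 that passed their own test (edgeR, adjusted P at most 0.05), for the members given per library. All values are differences of log2 fold changes, and no cause was tested. In wild type, the effect at 480 min minus that at 30 min was 1.136 for NIP1-2, 1.511 for NIP4-2, -0.344 for NIP5-1, -1.139 for PIP1-1, -0.734 for PIP2-1, -0.734 for PIP2-2, -1.564 for PIP2-3, -0.732 for TIP1-1, -1.037 for TIP2-2 and -1.665 for TIP2-3. In cif1 cif2, the same difference was 1.223 for NIP1-2, 2.655 for NIP4-2, -0.301 for NIP5-1, -1.125 for PIP1-1, -0.594 for PIP2-1, -0.834 for PIP2-2, -1.947 for PIP2-3, -0.897 for TIP1-1, -1.308 for TIP2-2 and -2.285 for TIP2-3.

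The effect in sgn3 minus that in wild type at 30 min was 0.501 for PIP2-1, 0.547 for PIP2-2 and 0.783 for PIP2-3. At 120 min it was 0.827 for PIP1-1, 0.882 for PIP2-1, 0.865 for PIP2-2, 1.366 for PIP2-3, 0.458 for TIP1-1 and 1.261 for TIP2-3. At 480 min it was -1.020 for NIP1-2, -1.791 for NIP4-2, 1.350 for PIP1-1, 0.997 for PIP2-1, 1.025 for PIP2-2, 2.065 for PIP2-3, 0.989 for TIP1-1, 1.152 for TIP2-2 and 1.924 for TIP2-3. Those at 30 min were lost without batch 2 and without batch 3.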

How the results depend on the processing

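Of the 202 values of single members that were called, 0 changed sign under any alternative. Those no longer past the threshold numbered 3 with limma-trend, 2 with DESeq2, 2 without the filter, 39 at an adjusted P of 0.01, 0 with DESeq2 size factors and 0 with 1 CPM in 3 libraries. There were 24 (of 200) when only the libraries of a comparison were fitted, 36, 35 and 54 without batches 1, 2 and 3, and 3 (of 175) without the libraries with conflicting labels.

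Without the batch block 33 of the 202 were lost, and these counts of members moved by over 1.5 times. With CIF2 in wild type at 30 min 2 fell, against 5 with the block. For the effect in sgn3 minus that in wild type, 1 was higher at 30 min (3 with the block) and 5 at 120 min (9 with the block). In cif1 cif2 minus wild type without peptide at 30 min 0 were lower (1 with the block).

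With only the libraries of the comparison, 1 member rose with CIF2 in sgn3 at 30 min (0 in the full fit) and 1 in wild type at 120 min (2). For sgn3 minus wild type, 6 were higher at 30 min (3), and 15 were higher and 1 lower at 120 min (9 and 0). Without peptide and against wild type, cif1 cif2 had 1 member lower at 120 min (0) and 0 at 30 min (1), and sgn3 had 4 at 30 min (0). From 30 to 480 min without peptide, 1 was higher in wild type (2), while 4 were lower (9) and 1 higher (4) in cif1 cif2, and 1 was higher in sgn3 (2).

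At an adjusted P of 0.01, 1 member fell with CIF2 in wild type at 30 min (5), 1 rose at 120 min (2), and 1 was higher for sgn3 minus wild type at 30 min (3). Without peptide, cif1 cif2 had 0 members below wild type at 30 min (1), and 1 was higher at 480 than at 30 min in each genotype (2 in wild type, 4 in cif1 cif2, 2 in sgn3). In cif1 cif2 minus wild type without peptide at 30 min, 4 were lower with DESeq2, 2 with its size factors, 2 without the filter and 3 with 1 CPM in 3 libraries (1). DESeq2 called 1 lower for sgn3 minus wild type at 120 min (0) and 1 below wild type in sgn3 without peptide at 30 min (0), and limma-trend 1 lower for sgn3 minus wild type at 120 min (0) and 1 below wild type in cif1 cif2 without peptide at 120 min (0). The causes were not tested, beyond fewer libraries or a stricter threshold by construction.

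With 1 batch left out, CIF2 gave 1 to 2 rises in cif1 cif2 at 120 min (3 with all), 0 to 8 falls at 30 min, 1 to 3 rises at 120 min and 4 to 7 falls past the fold threshold at 480 min in wild type. The effect at 480 minus 30 min was more positive for 1 to 3 members in wild type, and sgn3 minus wild type was higher for 0 to 4 at 30 min and 4 to 6 at 120 min. Without peptide, 0 to 2 members of cif1 cif2 lay below wild type at 30 min. Over 30 min, 7 to 14 were lower at 120 min and 1 to 2 higher at 480 min in wild type, 4 to 10 were lower and 1 to 3 higher at 480 min in cif1 cif2, and 4 to 9 were lower at 120 min and 1 to 2 higher at 480 min in sgn3. Low counts limit NIP2-1, NIP4-2 and PIP2-5 most.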
